A study of Mus musculus with 18 samples.

Results

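The response to immune complexes (IC) of LYVE1+CX3CR1+ macrophages of the mouse synovium was compared with that of the MHCII+ macrophages across all expressed genes. The quantity was the log2 change with IC in LYVE1+CX3CR1+ macrophages minus the mean of the log2 changes in MHCII+CD11c- and MHCII+CD11c+ macrophages, called the difference of responses here. It used all 18 libraries of the series, in 6 groups of 3, and 10550 of the 24421 listed genes had enough counts to be tested. A positive difference means a larger rise, or a smaller fall, in LYVE1+CX3CR1+ macrophages.

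The groups were 3 sorted subsets of synovial macrophages, each from untreated mice and from mice taken 8 h after ovalbumin and rabbit antibody to ovalbumin were given into the vein as IC. The mice were wild type C57BL/6 of both sexes, and the study used ages of 8 to 20 weeks. A library is a pool of 3 mice (6 legs), so a replicate is not a single animal. LYVE1+CX3CR1+ macrophages were gated as MHCII- and Ly6C-, so that differences between subsets in the level of class II genes, *Lyve1* or *Cx3cr1* follow from the sort.

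Library totals lay between 245903 and 2172358 counts. The smallest were the second and the first MHCII+CD11c- library with IC (245903 and 381217 counts), named the 2 smallest libraries in what follows. Levels are given as CPM, counts scaled to library size with TMM factors, which are not per length and are not compared between genes. In untreated libraries the 6 LYVE1+ markers (*Lyve1*, *Cx3cr1*, *Vsig4*, *Timd4*, *Folr2*, *Sparc*) summed to between 6247 and 6729 CPM in LYVE1+CX3CR1+, 2020 and 2115 in MHCII+CD11c- and 840 and 952 in MHCII+CD11c+ macrophages. The 6 MHCII+ markers (*H2-Ab1*, *H2-Aa*, *H2-Eb1*, *Cd74*, *Retnla*, *Ccr2*) summed to between 138 and 278, 21820 and 24301, and 32101 and 35142 CPM in the same order, as the labels have it.

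IC bind the Fc receptors for IgG on macrophages. FcγRIIB inhibits the cell, and the other receptors activate it through tyrosine kinases. LYVE1+CX3CR1+ macrophages are resident cells of the joint, MHCII+ macrophages present antigen on class II molecules, and activated macrophages release cytokines, chemokines and interferons that act on their neighbours.

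Most called genes had the same sign in both populations. An adjusted p under 0.05 was reached by 49 genes in the LYVE1+CX3CR1+ response (0.464% of those tested, 26 higher and 23 lower) and by 432 genes in the mean MHCII+ response (4.09%, 235 higher and 197 lower), which rests on 12 libraries against 6. In single subsets 112 genes were called for MHCII+CD11c- (1.06%) and 71 for MHCII+CD11c+ macrophages (0.673%). The difference of responses was called for 1 gene, *Vcan* (0.00948%). Of the 49 genes, 48 had the same sign in the mean MHCII+ response, and of the 432, 377 had the same sign in LYVE1+CX3CR1+ macrophages, beside 6296 of all 10550 genes (59.7%). The 30 genes called in both responses moved the same way in each, 17 higher and 13 lower. Without the 2 smallest libraries the difference was called for 6 genes (*Vcan*, *Mpeg1*, *Ccl6*, *H2-Ab1*, *Lyve1* and *Slc17a5*), and DESeq2's Wald test called 12.

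The 8 most highly expressed of the 30 shared genes had several roles. *Hspa5*, a chaperone of the endoplasmic reticulum, rose by 1.02 (SE 0.15, adjusted p = 9.84e-04) on the log2 scale in LYVE1+CX3CR1+ macrophages and by 0.65 (SE 0.11, adjusted p = 5.65e-04) in the MHCII+ mean. *Hspa8*, its cytosolic relative, rose by 0.72 (SE 0.15, adjusted p = 0.0174) and by 0.52 (SE 0.10, adjusted p = 0.00329). *Srgn*, a proteoglycan of secretory granules, rose by 1.15 (SE 0.23, adjusted p = 0.0152) and by 0.91 (SE 0.16, adjusted p = 0.00126).

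Treated libraries of *Hspa5* and *Hspa8* lay above untreated ones in all 3 subsets. The chemokine *Ccl9* rose by 1.09 (SE 0.19, adjusted p = 0.00442) and by 0.61 (SE 0.13, adjusted p = 0.00764). *Abca9*, an ABC transporter, fell by 0.69 (SE 0.15, adjusted p = 0.0266) and 0.81 (SE 0.11, adjusted p = 4.77e-05), with treated below untreated libraries in each subset. The nuclear RNA *Malat1* fell by 1.48 (SE 0.23, adjusted p = 0.00102) and by 0.71 (SE 0.16, adjusted p = 0.00866). In leave-one-out fits the LYVE1+CX3CR1+ call held in 15 of 18 for *Hspa8*, 14 for *Srgn* and 13 for *Abca9*, with adjusted p up to 0.282, and in all 18 for the other 3. The differences of responses of these 6 genes were 0.37 (95% interval -0.01 to 0.75), 0.20 (95% interval -0.17 to 0.57), 0.24 (95% interval -0.33 to 0.80), 0.48 (95% interval 0.00 to 0.95), 0.12 (95% interval -0.25 to 0.49) and -0.77 (95% interval -1.33 to -0.21) in the order given, none of them called. The other 2 of the 8, *Ccl6* and *Fcgr2b*, are described further on.

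**Figure D1:**
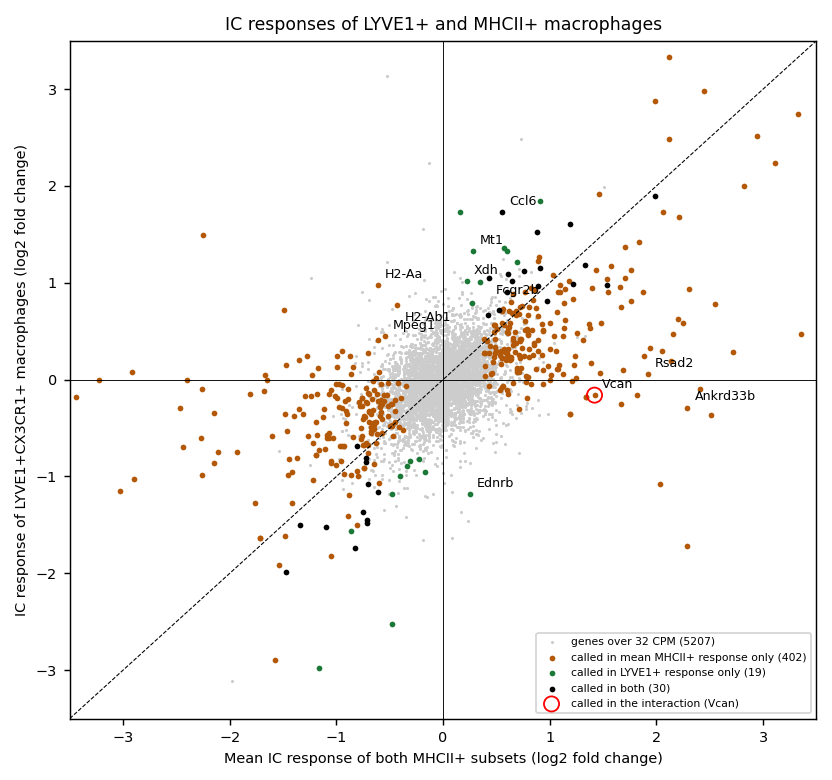
Response of LYVE1+CX3CR1+ macrophages to IC (vertical axis, log2 fold change) against the mean response of both MHCII+ subsets (horizontal axis, log2 fold change), a point per gene over 32 CPM or called in either response. Points in orange (402) were called in the mean MHCII+ response only, in green (19) in the LYVE1+CX3CR1+ response only and in black (30) in both, the dashed line marks equal responses, the red ring marks *Vcan*, and 31 points lie outside the axes. Most coloured points lie in the upper right and lower left, and *H2-Aa*, *H2-Ab1* and *Mpeg1* lie in the upper left.

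Across the 5207 genes over 32 CPM the LYVE1+CX3CR1+ and the mean MHCII+ response had a Pearson's r of 0.57 and a Spearman's rho of 0.43, given as a description over genes, which are not replicates. The responses share no library, though subsets of 1 condition may come from the same mice. The 95% interval of the difference had a median half-width of 0.64 on the log2 scale for these genes, and the difference itself a median size of 0.22, so that differences of the usual size were not detectable. An unadjusted p under 0.05 was reached by 574 genes (5.44%), 279 with a difference above 0 and 295 below.

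In 2233 genes (21.2%) the LYVE1+CX3CR1+ value had the opposite sign to both MHCII+ values. *Vcan* was the 1 gene among them with a called difference, and its LYVE1+CX3CR1+ value was near 0. Of the 574 genes with an unadjusted p under 0.05, 373 were opposed in this way (65.0%), a share raised by their choice, since opposite signs add in the difference. In 9 genes every LYVE1+CX3CR1+ library with IC lay above, and every library with IC of both MHCII+ subsets below, the untreated libraries of its subset (0.0853% of those tested), and 0 genes had the reverse. These 9 were singled out after their values were seen and were *Cradd*, *Cryl1*, *Galnt10*, *H2-Aa*, *Lyz2*, *Mpeg1*, *Ppfibp2*, *Ptger2* and *Rpl7*. Within a subset, libraries with IC lay all above the untreated ones in 9.6% (LYVE1+CX3CR1+), 5.68% (MHCII+CD11c-) and 8.51% (MHCII+CD11c+) of genes and all below in 9.46%, 8.56% and 9.94%. Shares of this size would give some such opposed genes even if the subsets were unrelated, so the 9 are not read as a pattern.

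*Vcan* (chromosome 13 from 89655309 to 89743027) encodes versican, a proteoglycan of the matrix, and is also a monocyte marker. It rose in the MHCII+ mean, and its change in LYVE1+CX3CR1+ macrophages, where its level was highest, was not called. LYVE1+CX3CR1+ libraries held 469, 501 and 582 CPM without treatment and 435, 396 and 560 with IC. MHCII+CD11c- libraries held 67.4, 77 and 99.1 CPM without treatment and 118, 90.4 and 186 with IC. MHCII+CD11c+ libraries held 11, 11.8 and 13 CPM without treatment and 43.2, 45.6 and 60.9 with IC. Treated and untreated libraries were apart in MHCII+CD11c+ macrophages and overlapped in the other subsets, and every MHCII+ library stayed below every LYVE1+CX3CR1+ library.

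The log2 response of *Vcan* was -0.16 (SE 0.19) in LYVE1+CX3CR1+ macrophages and 1.42 (SE 0.18, adjusted p = 2.51e-05) in the MHCII+ mean. The mean joins 0.77 (SE 0.23, adjusted p = 0.108) for CD11c- and 2.08 (SE 0.27, adjusted p = 1.30e-04) for CD11c+ cells. The difference of responses was -1.58 (SE 0.26, 95% interval -2.12 to -1.03, adjusted p = 0.0321) by edgeR. With each library left out in turn it ranged from -1.74 to -1.35 and stayed called in 6 of 18 fits, with adjusted p from 0.00221 to 0.383. The call was lost without any 1 of 12 libraries, among them each untreated LYVE1+CX3CR1+ library (adjusted p up to 0.383 without the third) and the third MHCII+CD11c- library with IC (adjusted p = 0.108). With every library thinned to the smallest total the difference of *Vcan* was -1.31 and was not called (adjusted p = 0.966).

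**Figure D2:**
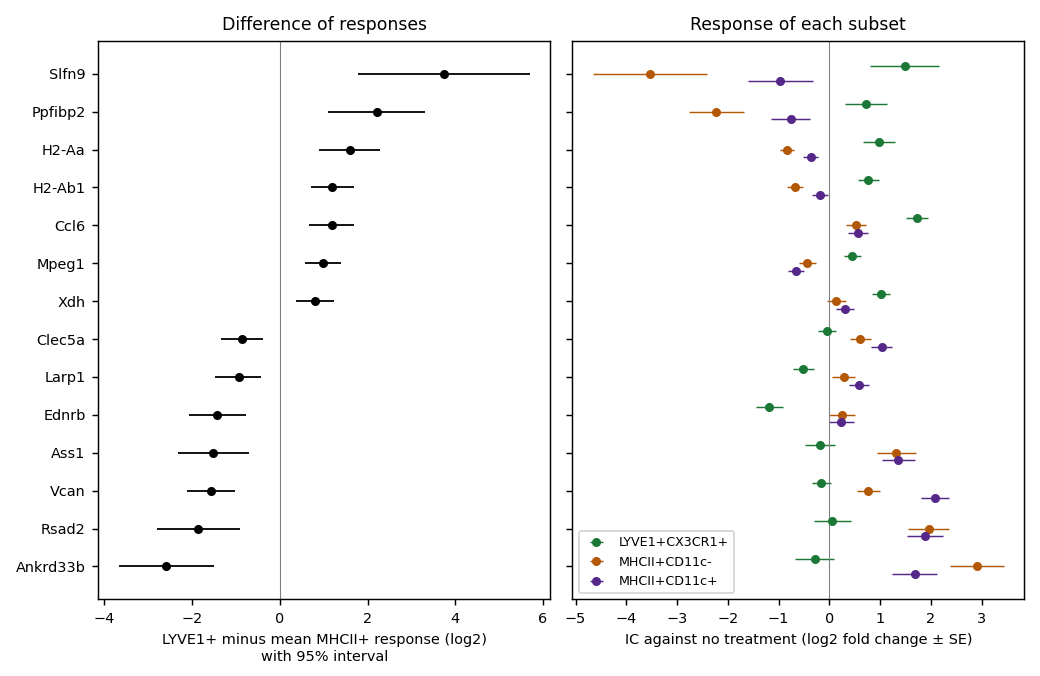
Left, the difference of responses (log2) with its 95% interval for 14 of the genes with the lowest p, 7 above and 7 below 0. Right, the response of each subset as log2 fold change with its SE, in green for LYVE1+CX3CR1+, orange for MHCII+CD11c- and purple for MHCII+CD11c+ macrophages. The interval of *Vcan* runs from -2.12 to -1.03, and the widest is that of *Slfn9*, which rests on a group with 1 read and is not read as a fold.

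Other genes rose in the MHCII+ mean with a LYVE1+CX3CR1+ value near 0, and their differences fell short of the threshold. *Ankrd33b*, whose protein has ankyrin repeats, held 37.1, 23.2 and 28 CPM without treatment and 33.3, 20 and 18.7 with IC in LYVE1+CX3CR1+ macrophages. In MHCII+CD11c- macrophages it was at 3.49, 9.78 and 4.09 CPM without treatment and 36.6, 64 and 35.1 with IC. In MHCII+CD11c+ macrophages it was at 13.1, 6.57 and 3.86 CPM without treatment and 17, 29.9 and 27.4 with IC. In both MHCII+ subsets the treated libraries lay above the untreated ones, which held as few as 3 reads. The MHCII+ mean of *Ankrd33b* was 2.29 (SE 0.34, adjusted p = 2.29e-04) and the difference -2.59 (SE 0.53, 95% interval -3.67 to -1.51, adjusted p = 0.115), which was called in 1 of the 18 fits that left out a library.

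*Clec5a*, a receptor that signals through DAP adaptors, rose in the MHCII+ mean by 0.82 (SE 0.15, adjusted p = 0.00147) with -0.04 (SE 0.18) in LYVE1+CX3CR1+ macrophages, and its difference was -0.86 (SE 0.23, adjusted p = 0.556). Its treated libraries lay above the untreated ones in both MHCII+ subsets and overlapped them in LYVE1+CX3CR1+ macrophages. *Ass1*, an enzyme of arginine synthesis, rose in the MHCII+ mean by 1.34 (SE 0.25, adjusted p = 0.00189) with a difference of -1.52 (SE 0.39, adjusted p = 0.473). *Gm5424* had values identical to those of *Ass1*, so that their reads cannot be told apart. *Larp1*, an RNA-binding protein, had -0.51 (SE 0.21) in LYVE1+CX3CR1+ macrophages and 0.43 (SE 0.15) in the MHCII+ mean, neither called, and a difference of -0.94 (SE 0.25, adjusted p = 0.540).

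Interferon-stimulated genes leaned the same way. Of 38 tested, 24 had a difference below 0 against 5322 of all 10550, and 6 of these and 0 of those above 0 had an unadjusted p under 0.05, beside 5.44% of all genes, and no difference was called. Their median difference was -0.32 against -0.00 over all genes. Their median response was 0.24 in LYVE1+CX3CR1+, 0.45 in MHCII+CD11c- macrophages and 0.62 in MHCII+CD11c+ macrophages, and 10 rose and 2 fell in the MHCII+ mean, where 4.09% of all genes were called, and 1 rose in LYVE1+CX3CR1+ macrophages, where 0.464% were.

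*Rsad2* encodes the antiviral enzyme viperin. In LYVE1+CX3CR1+ macrophages its libraries held 18.9, 25.1 and 19.9 CPM without treatment and 20.3, 24.2 and 22.1 with IC. The level in MHCII+CD11c- macrophages was 17.4, 26.9 and 18.4 CPM without treatment and 102, 48.9 and 86.1 with IC. The level in MHCII+CD11c+ macrophages was 31, 9.20 and 14 CPM without treatment and 38.6, 95.2 and 65.8 with IC. Treated libraries lay above untreated ones in both MHCII+ subsets and overlapped them in LYVE1+CX3CR1+ macrophages. The MHCII+ mean of *Rsad2* was 1.92 (SE 0.27, adjusted p = 9.61e-05), the LYVE1+CX3CR1+ response 0.06 (SE 0.37) and the difference -1.86 (SE 0.46, 95% interval -2.81 to -0.91, adjusted p = 0.430).

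*Mx1*, a GTPase that blocks viruses, rose in the MHCII+ mean by 1.82 (SE 0.34, adjusted p = 0.00187), with a difference of -1.98 (SE 0.65, adjusted p = 0.799). *Ddx58*, the RNA sensor RIG-I, rose by 1.12 (SE 0.21, adjusted p = 0.00193), with a difference of -1.05 (SE 0.35, adjusted p = 0.799). *Irf7*, a transcription factor of the interferon response, rose by 1.38 (SE 0.22, adjusted p = 3.39e-04), with 0.53 (SE 0.31, adjusted p = 0.708) in LYVE1+CX3CR1+ macrophages and a difference of -0.85 (SE 0.38, adjusted p = 0.905), which was -0.27 without the second untreated LYVE1+CX3CR1+ library and -1.18 without the second treated one. The most highly expressed member, *Ly6e*, had a difference of 0.18 (SE 0.24, adjusted p = 0.981), so that members of the list differed in sign.

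The promoters of *Rsad2*, *Ddx58* and *Oas3* are shown because these genes had a difference below 0 at an unadjusted p under 0.05 and hold the core of the interferon-stimulated response element, which is GAAA, 2 bases of any kind and GAAA again, on either strand (capitals). Windows run from 250 bases before to 50 after the start of transcription in RefSeq on GRCm38.p6, at chr12:26456403-26456702, chr4:40239776-40240075 and chr5:120777610-120777909, each on the minus strand and written 5′ to 3′ along the gene.
Rsad2: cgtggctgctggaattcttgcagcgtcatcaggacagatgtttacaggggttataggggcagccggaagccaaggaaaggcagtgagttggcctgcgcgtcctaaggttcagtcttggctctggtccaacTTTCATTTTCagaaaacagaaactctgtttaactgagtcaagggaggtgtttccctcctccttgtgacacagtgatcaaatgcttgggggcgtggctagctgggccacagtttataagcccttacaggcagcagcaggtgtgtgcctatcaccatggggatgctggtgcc
Ddx58: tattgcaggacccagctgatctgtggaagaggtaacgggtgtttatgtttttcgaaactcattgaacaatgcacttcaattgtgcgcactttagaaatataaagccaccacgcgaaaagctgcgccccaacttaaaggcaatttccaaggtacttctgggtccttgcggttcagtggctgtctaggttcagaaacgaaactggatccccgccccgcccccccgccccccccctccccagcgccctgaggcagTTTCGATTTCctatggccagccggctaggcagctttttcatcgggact
Oas3: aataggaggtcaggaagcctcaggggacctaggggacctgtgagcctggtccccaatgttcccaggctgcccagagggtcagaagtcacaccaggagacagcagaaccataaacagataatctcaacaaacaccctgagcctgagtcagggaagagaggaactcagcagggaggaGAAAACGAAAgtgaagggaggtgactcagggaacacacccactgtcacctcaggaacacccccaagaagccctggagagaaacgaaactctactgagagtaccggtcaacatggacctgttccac
The core was found in 16 of the 27 list members with a window (59.3%), in 321 of 8012 tested genes (4.01%) and in 1131 of all 32851 windows (3.44%). The windows of *Oasl2* and *Irf7*, which also had a difference below 0 at an unadjusted p under 0.05, did not hold these letters.

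Genes of cell adhesion and matrix, a list that holds *Vcan*, also leaned toward MHCII+ macrophages. Of 40 tested, 26 had a difference below 0, and 8 of these (*Vcan* included) and 0 of those above 0 had an unadjusted p under 0.05, beside 5.44% of all genes, with a median of -0.37. In the MHCII+ mean 12 rose and 1 fell, beside 4.09% of all genes called. In LYVE1+CX3CR1+ macrophages 0 were called, where the background of 0.464% gives fewer than 1 in a list of this size. *Thbs1*, thrombospondin 1, rose in the MHCII+ mean by 2.41 (SE 0.45, adjusted p = 0.00188), with -0.10 (SE 0.74) in LYVE1+CX3CR1+ macrophages and a difference of -2.51 (SE 0.86, adjusted p = 0.799). Its LYVE1+CX3CR1+ libraries held 5.39, 5.01 and 62.5 CPM without treatment and 0.564, 25.8 and 43.2 with IC, a wide spread. *Itgb5*, an integrin subunit, rose in the MHCII+ mean by 0.94 (SE 0.18, adjusted p = 0.00241), with a difference of -0.84 (SE 0.29, adjusted p = 0.799). The most highly expressed member, *Fn1* (fibronectin), had a difference of 0.56 (SE 0.53, adjusted p = 0.978).

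Of the 6 markers of LYVE1+CX3CR1+ macrophages 5 had a difference below 0, with a median of -0.66. In the MHCII+ mean, where 4.09% of all genes were called, 4 of the 6 rose. *Lyve1*, a hyaluronan receptor, rose by 1.26 (SE 0.20, adjusted p = 3.39e-04), *Vsig4*, a complement receptor, by 1.0 (SE 0.16, adjusted p = 4.53e-04), *Sparc*, a matrix protein, by 1.24 (SE 0.23, adjusted p = 0.00189) and *Cx3cr1*, the fractalkine receptor, by 0.56 (SE 0.14, adjusted p = 0.0226). The call of *Cx3cr1* held in 10 of 18 leave-one-out fits. MHCII+CD11c- libraries of *Lyve1* held 702, 806 and 882 CPM without treatment and 1841, 516 and 2290 with IC, which overlapped through the second library. MHCII+CD11c+ libraries held 365, 439 and 329 CPM without treatment and 1001, 1054 and 1232 with IC, which were apart. Its level in LYVE1+CX3CR1+ macrophages was 2171, 2382 and 2563 CPM without treatment and 3219, 3172 and 3555 with IC, which were apart too, with a response of 0.48 (SE 0.27, adjusted p = 0.673). The difference of *Lyve1* was -0.77 (SE 0.34, adjusted p = 0.877).

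In bulk samples, fewer cells of a type and less RNA per cell cannot be told apart. With IC the 6 LYVE1+ markers summed to between 7885 and 8085 CPM in LYVE1+CX3CR1+, 1826 and 4492 in MHCII+CD11c- and 1498 and 1935 in MHCII+CD11c+ libraries. The 6 MHCII+ markers summed to between 78 and 244, 8149 and 14810, and 24203 and 29779 CPM. *Itgax*, which encodes CD11c, held 2.33, 2.44 and 13.3 CPM in untreated MHCII+CD11c- libraries and 70.6, 33.9 and 31 with IC. Its response there was 2.75 (SE 0.63, adjusted p = 0.0261), called in 15 of 18 leave-one-out fits. MHCII+CD11c+ libraries of *Itgax* held 304, 240 and 265 CPM without treatment and 383, 273 and 357 with IC, which overlapped and lay above all MHCII+CD11c- libraries. *Vcan*, *Lyve1* and *Sparc* are all genes with a higher level in LYVE1+CX3CR1+ macrophages, and the part of such shifts in their differences was not tested.

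*Ccl6* (chromosome 11 from 83587886 to 83593087), a CC chemokine, rose in both populations, with the larger fitted value in LYVE1+CX3CR1+ macrophages. LYVE1+CX3CR1+ libraries held 384, 305 and 328 CPM without treatment and 1307, 1309 and 755 with IC. MHCII+CD11c- libraries held 1657, 1455 and 1184 CPM without treatment and 1914, 2485 and 1805 with IC. In MHCII+CD11c+ macrophages it was at 2155, 1734 and 1581 CPM without treatment and 2690, 3242 and 2166 with IC. Treated libraries lay above untreated ones in all 3 subsets, and LYVE1+CX3CR1+ libraries with IC stayed below all MHCII+ libraries with IC. The responses were 1.73 (SE 0.21, adjusted p = 4.84e-05) and, in the MHCII+ mean, 0.55 (SE 0.14, adjusted p = 0.0255), the latter called in 13 of 18 leave-one-out fits. The difference of *Ccl6* was 1.18 (SE 0.25, 95% interval 0.67 to 1.69, adjusted p = 0.132), and it was called without the 2 smallest libraries (adjusted p = 0.0440) and by DESeq2 (adjusted p = 0.00574).

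*Xdh*, the enzyme that makes uric acid, and *Mt1*, a metallothionein that binds zinc and copper, were called in LYVE1+CX3CR1+ macrophages and not in the MHCII+ mean. LYVE1+CX3CR1+ libraries of *Xdh* held 319, 276 and 297 CPM without treatment and 679, 617 and 520 with IC, a response of 1.02 (SE 0.17, adjusted p = 0.00221) against 0.22 (SE 0.12, adjusted p = 0.356) in the MHCII+ mean. Those of *Mt1* held 77.5, 65.8 and 89.9 CPM without treatment and 254, 172 and 161 with IC, a response of 1.33 (SE 0.23, adjusted p = 0.00432) against 0.28 (SE 0.17, adjusted p = 0.402). Treated and untreated LYVE1+CX3CR1+ libraries were apart for both genes. The differences were 0.80 (SE 0.21, adjusted p = 0.473) for *Xdh* and 1.05 (SE 0.28, adjusted p = 0.534) for *Mt1*, neither called. The LYVE1+CX3CR1+ call of *Mt1* was lost without the second untreated or the first treated library of that subset (adjusted p up to 0.0746).

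The promoter of *Mt1* (chr8:94178839-94179138, plus strand, RefSeq on GRCm38.p6) is shown because metallothionein genes carry copies of the metal response element. The letters TGCNCNC, a loose form of its core with N for any base, are in capitals on either strand.
Mt1: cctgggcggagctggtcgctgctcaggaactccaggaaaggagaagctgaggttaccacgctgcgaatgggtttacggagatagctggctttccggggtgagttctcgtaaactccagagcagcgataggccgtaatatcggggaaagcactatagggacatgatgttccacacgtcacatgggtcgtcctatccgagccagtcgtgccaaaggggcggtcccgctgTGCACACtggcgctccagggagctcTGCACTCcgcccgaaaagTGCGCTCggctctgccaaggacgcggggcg
It held 3 matches, to letters so few and loose that 16765 of 32851 windows (51%) held at least 1.

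*Fcgr2b* encodes the inhibitory Fc receptor. In LYVE1+CX3CR1+ macrophages its libraries held 290, 250 and 228 CPM without treatment and 578, 547 and 469 with IC. In MHCII+CD11c- macrophages it was at 388, 361 and 459 CPM without treatment and 557, 407 and 569 with IC. The level in MHCII+CD11c+ macrophages was 399, 463 and 453 CPM without treatment and 696, 569 and 600 with IC. Treated and untreated libraries overlapped in MHCII+CD11c- macrophages alone. The responses of *Fcgr2b* were 1.05 (SE 0.16, adjusted p = 0.00102) and, in the MHCII+ mean, 0.43 (SE 0.11, adjusted p = 0.0310), the latter called in 4 of 18 leave-one-out fits, and the difference was 0.63 (SE 0.20, 95% interval 0.22 to 1.03, adjusted p = 0.713).

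*Fcgr1*, the activating high-affinity receptor, rose by 0.99 (SE 0.21, adjusted p = 0.0213), a call that held in 13 of 18 leave-one-out fits, and by 1.22 (SE 0.15, adjusted p = 2.51e-05), with a difference of -0.22 (95% interval -0.75 to 0.30). *Fcgr3*, an activating receptor of lower affinity, had 0.08 (SE 0.14) and -0.15 (SE 0.10), neither called, with a difference of 0.23 (95% interval -0.13 to 0.59). Of 20 Fc receptor and proximal signalling genes tested, 11 had a difference above 0, and the median was 0.02. An unadjusted p under 0.05 was reached by 1 gene in each direction, *Fcgr2b* being the one above 0, beside 5.44% of all genes.

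*Ednrb*, an endothelin receptor, was the 1 gene called in LYVE1+CX3CR1+ macrophages whose MHCII+ mean had the other sign. Its level in LYVE1+CX3CR1+ macrophages was 100, 109 and 105 CPM without treatment and 58.6, 42.2 and 38.4 with IC, which were apart. The level in MHCII+CD11c- macrophages was 158, 242 and 200 CPM without treatment and 201, 320 and 207 with IC. MHCII+CD11c+ libraries held 225, 253 and 231 CPM without treatment and 154, 419 and 256 with IC, and both MHCII+ subsets overlapped. The responses of *Ednrb* were -1.18 (SE 0.27, adjusted p = 0.0431), a call that held in 8 of 18 leave-one-out fits, and 0.25 (SE 0.18, adjusted p = 0.526) in the MHCII+ mean. The difference was -1.43 (SE 0.32, 95% interval -2.08 to -0.77, adjusted p = 0.229).

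*Nr1d1*, a repressor of the circadian clock, fell in LYVE1+CX3CR1+ macrophages, from 74.8, 78.4 and 76.5 to 10.7, 9.49 and 8.64 CPM, a response of -2.98 (SE 0.48, adjusted p = 0.00181) against -1.16 (SE 0.40, adjusted p = 0.112) in the MHCII+ mean, and its difference was -1.83 (SE 0.63, adjusted p = 0.799). Of 21 sterol genes tested, 14 had a difference below 0, with a median of -0.43 that was -0.20 without the 2 smallest libraries and -0.80 in thinned libraries, where 11 were tested and 0 lay above 0. Of the sterol genes 3 fell in LYVE1+CX3CR1+ macrophages (0.464% of all genes called) and 3 in the MHCII+ mean (4.09%). 

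**Figure D3:**
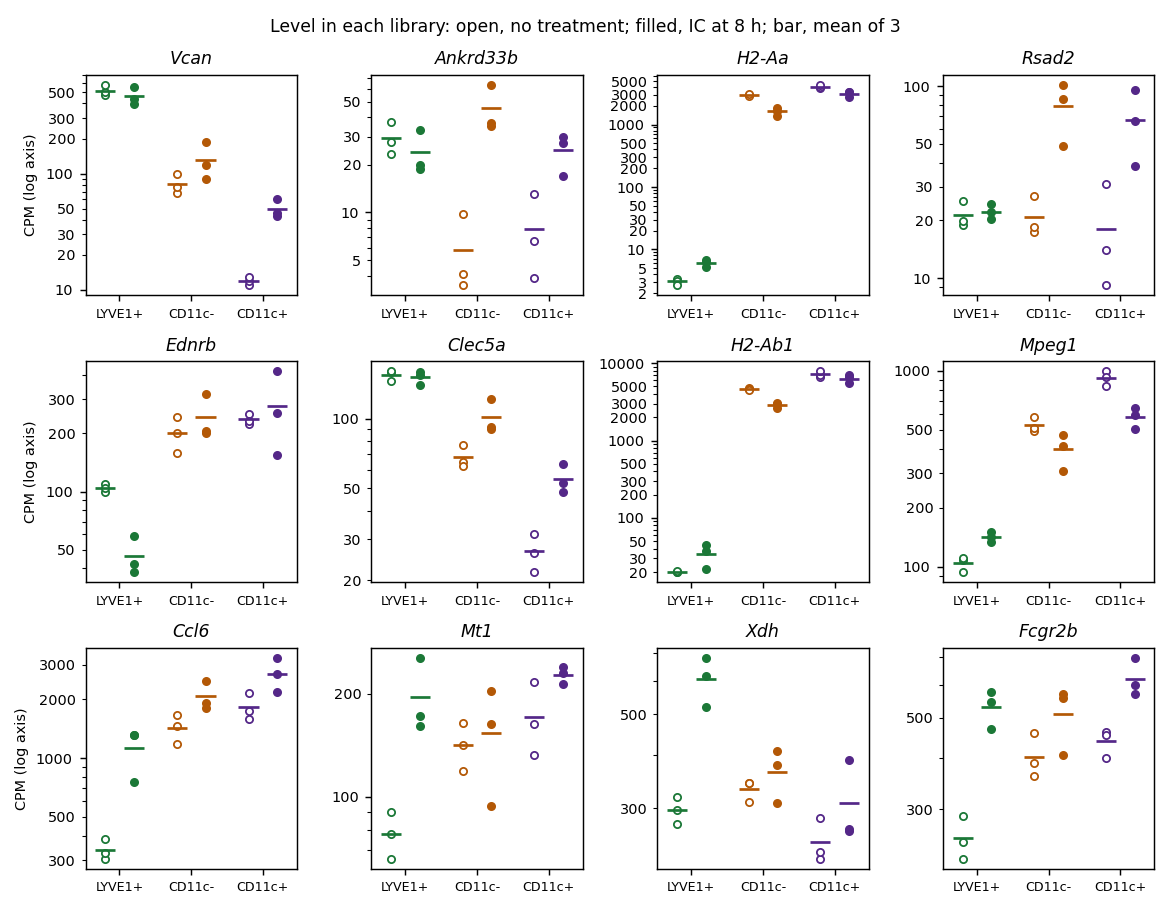
Level of 12 genes in each of the 18 libraries as CPM on a log axis with its own range in each panel, with open points for untreated libraries, filled points for libraries with IC and bars for the mean of 3. LYVE1+, CD11c- and CD11c+ stand for LYVE1+CX3CR1+, MHCII+CD11c- and MHCII+CD11c+ macrophages. For *Ankrd33b*, *Rsad2* and *Clec5a* filled and open points are apart in both MHCII+ subsets and mixed in LYVE1+CX3CR1+ macrophages, and for *Mpeg1* the filled points lie higher in the first subset and lower in the others.

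Class II genes *H2-Ab1* and *H2-Aa* fell in the MHCII+ mean and had the other sign at a trace level in LYVE1+CX3CR1+ macrophages. *H2-Ab1* (chromosome 17 from 34263227 to 34269418) encodes a class II beta chain. LYVE1+CX3CR1+ libraries held 20.2, 20.1 and 20.5 CPM without treatment and 22, 44.3 and 37.5 with IC. MHCII+CD11c- libraries held 4745, 4585 and 4548 CPM without treatment and 3088, 2670 and 2926 with IC. In MHCII+CD11c+ macrophages it was at 6630, 7030 and 7825 CPM without treatment and 6539, 5525 and 6952 with IC. Treated libraries lay above the untreated ones in LYVE1+CX3CR1+, below them in MHCII+CD11c- and among them in MHCII+CD11c+ macrophages. The responses of *H2-Ab1* were 0.77 (SE 0.21, adjusted p = 0.136) and, in the MHCII+ mean, -0.43 (SE 0.11, adjusted p = 0.0301), the latter called in 11 of 18 leave-one-out fits. The difference was 1.20 (SE 0.24, 95% interval 0.71 to 1.69, adjusted p = 0.115), called without the 2 smallest libraries (adjusted p = 0.0418) and by DESeq2 (adjusted p = 6.36e-04), and 0.58 in thinned libraries.

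*H2-Aa*, the matching alpha chain, fell in the MHCII+ mean by 0.61 (SE 0.10, adjusted p = 5.22e-04), with treated below untreated libraries in both subsets. LYVE1+CX3CR1+ libraries of *H2-Aa* held 3.37, 3.13 and 2.69 CPM without treatment and 6.20, 6.85 and 5.28 with IC, which rest on 5, 5 and 5 reads against 11, 13 and 11, with no call (0.98, adjusted p = 0.422). The difference of *H2-Aa* was 1.59 (SE 0.33, 95% interval 0.90 to 2.28, adjusted p = 0.229) and 0.28 in thinned libraries. *H2-Eb1*, the other beta chain, fell in the MHCII+ mean by 0.60 (SE 0.14, adjusted p = 0.0164). Its LYVE1+CX3CR1+ libraries held 0, 5.64 and 3.23 CPM without treatment and 1.69, 1.05 and 1.44 with IC. The treated ones lie near 3 counts, so that neither the sign in that subset nor the difference of *H2-Eb1* is read. Of 15 class II presentation genes tested, 7 had a difference above 0 and the median was -0.04, and 6 fell in the MHCII+ mean, beside 4.09% of all genes called there. In LYVE1+CX3CR1+ macrophages 0 were called, beside 0.464% of all genes.

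The promoter of *H2-Aa* (chr17:34287774-34288073, minus strand, RefSeq on GRCm38.p6) is printed for these class II genes, with the CCAAT box, a part of class II promoters, in capitals on either strand.
H2-Aa: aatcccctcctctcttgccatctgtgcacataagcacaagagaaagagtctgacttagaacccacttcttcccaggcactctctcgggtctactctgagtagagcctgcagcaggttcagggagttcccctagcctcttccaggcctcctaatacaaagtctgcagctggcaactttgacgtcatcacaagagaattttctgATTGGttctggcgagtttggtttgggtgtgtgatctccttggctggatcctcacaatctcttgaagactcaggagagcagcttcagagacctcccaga
A CCAAT box was found in 8 of the 11 class II presentation genes with a window (72.7%), in 42.8% of tested genes and in 37.4% of all windows.

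*Mpeg1* (chromosome 19 from 12460770 to 12465285), the pore-forming protein perforin-2 of phagocytes, lay higher with IC in LYVE1+CX3CR1+ macrophages and lower in both MHCII+ subsets. In LYVE1+CX3CR1+ macrophages its libraries held 108, 94 and 110 CPM without treatment and 151, 133 and 142 with IC. In MHCII+CD11c- macrophages it was at 489, 510 and 578 CPM without treatment and 411, 471 and 309 with IC. The level in MHCII+CD11c+ macrophages was 832, 990 and 931 CPM without treatment and 595, 645 and 504 with IC. Treated and untreated libraries were apart in each subset, with the treated ones above in the first and below in the others. The responses of *Mpeg1* were 0.45 (SE 0.17, adjusted p = 0.348) and, in the MHCII+ mean, -0.54 (SE 0.11, adjusted p = 0.00509), and the difference was 0.99 (SE 0.20, 95% interval 0.58 to 1.40, adjusted p = 0.115). It was called without the 2 smallest libraries (adjusted p = 0.00433) and by DESeq2 (adjusted p = 8.37e-04).

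*Ppfibp2* and *Slfn9* had larger differences on few reads. *Ppfibp2*, a liprin, held 8.76, 6.90 and 9.69 CPM in untreated LYVE1+CX3CR1+ libraries and 12.4, 12.1 and 17.3 with IC, and 32.6, 22 and 19.4 against 5.23, 0 and 7.01 in MHCII+CD11c- macrophages, the latter 2, 0 and 7 reads. Its MHCII+ mean was -1.49 (SE 0.33, adjusted p = 0.00943) and its difference 2.21 (SE 0.53, adjusted p = 0.415). *Slfn9*, a Schlafen gene, had 0, 0 and 1 reads in MHCII+CD11c- libraries with IC, under the floor of 3 counts, so that no fold is given.

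Ribosomal protein genes had small differences, mostly above 0. Of 71 tested, 69 had a difference above 0, beside 5228 of all 10550 genes (49.6%). An unadjusted p under 0.05 was reached by 17 of the 69, beside 5.44% of all genes, by 31 without the 2 smallest libraries and by 7 in thinned libraries, and none was called. The median difference was 0.30, from median responses of 0.13 in LYVE1+CX3CR1+, -0.07 in MHCII+CD11c- macrophages and -0.24 in MHCII+CD11c+ macrophages. *Rps16* and *Rpl7* had differences of 0.58 (SE 0.18) and 0.52 (SE 0.17), neither called, and the most highly expressed, *Rpsa*, of 0.44 (SE 0.18, adjusted p = 0.877).

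The number of ribosomal genes above 0 was 70 without the 2 smallest libraries and 63 in thinned libraries. These genes have near-identical pseudogenes, so that their counts are uncertain, and they move together within a library, so that 69 genes are not 69 measurements. The list of genes that tissue digestion can induce had 19 of 20 differences above 0 and a median of 0.30, led by *Socs3* at 0.65 (SE 0.24, adjusted p = 0.830) and *Ier2* at 0.47 (SE 0.18, adjusted p = 0.876). The part of tissue handling in either list was not tested.

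**Figure D4:**
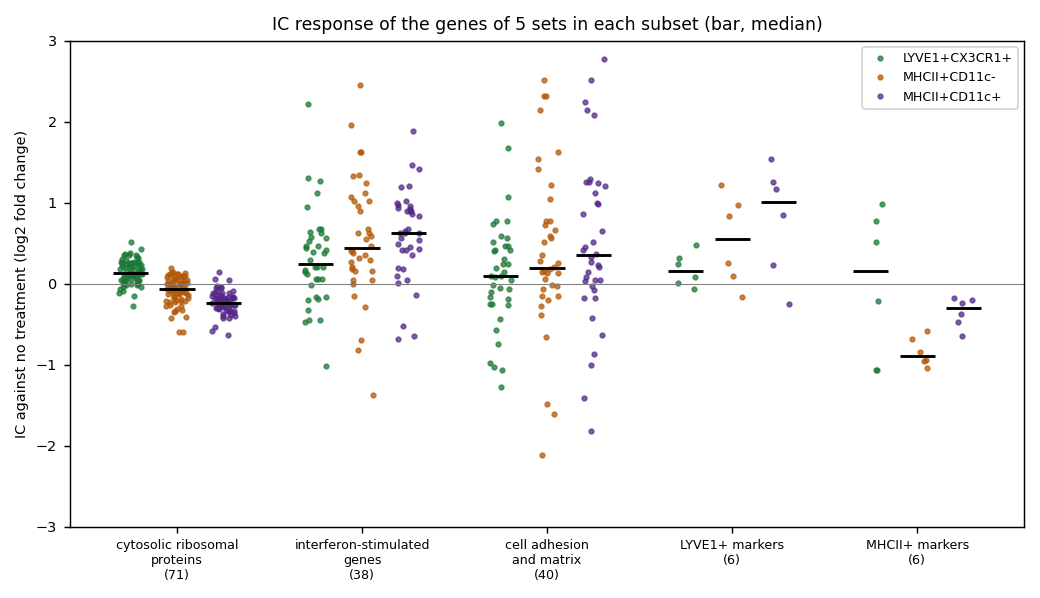
Response to IC (log2 fold change) of every tested gene of 5 sets in each subset, a point per gene with the median as a bar and the number of genes in brackets. There are 5 points outside the axis, and points are spread sideways only to be seen. Ribosomal protein genes have medians of 0.13, -0.07 and -0.24 in LYVE1+CX3CR1+, MHCII+CD11c- and MHCII+CD11c+ macrophages, and interferon-stimulated genes 0.24, 0.45 and 0.62.

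Among other lists, that of TGF-beta receptors and targets, which shares *Cx3cr1* and *Sparc* with the markers, had 14 of 17 differences below 0 and a median of -0.33. Scavenger receptors (11 of 26 above 0, median -0.13) held *Clec7a*, a receptor for fungal glucans, which fell in the MHCII+ mean by 0.95 (SE 0.22, adjusted p = 0.0113) with -0.06 (SE 0.30) in LYVE1+CX3CR1+ macrophages. The difference of *Clec7a* was thus above 0, against the sign of the list median. At an unadjusted p under 0.05 the list had 4 members below 0 and 1 above, beside 5.44% of all genes. Complement genes (7 of 17 above 0, median -0.17) held *C5ar1*, the C5a receptor, which rose in the MHCII+ mean by 0.53 (SE 0.13, adjusted p = 0.0224), a call that held in 12 of 18 leave-one-out fits, with -0.11 (SE 0.18) in LYVE1+CX3CR1+ macrophages and a difference of -0.64 (SE 0.22, adjusted p = 0.799).

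Among lipid genes, *Nr1h3*, the sterol sensor LXR alpha, rose in the MHCII+ mean by 2.31 (SE 0.35, adjusted p = 2.53e-04), with 0.94 (SE 0.41, adjusted p = 0.488) in LYVE1+CX3CR1+ macrophages and a difference of -1.37 (SE 0.54, adjusted p = 0.876). *Scd1*, a fatty acid desaturase, and *Lpl*, a lipase, had differences of -1.73 (SE 0.53) and -1.10 (SE 0.39), neither called. Their lists had no such lean. LXR targets and lipid efflux genes had 8 of 16 differences above 0 and a median of 0.00. Fatty acid synthesis genes had 5 of 9 above 0 and a median of 0.03. *Sgk1*, a kinase induced by glucocorticoids, rose in the MHCII+ mean by 0.93 (SE 0.16, adjusted p = 5.73e-04), with 0.25 (SE 0.20) in LYVE1+CX3CR1+ macrophages and a difference of -0.68 (SE 0.25, adjusted p = 0.815). The glucocorticoid and metallothionein list that holds it leaned the other way, with 14 of 20 differences above 0 and a median of 0.23. At an unadjusted p under 0.05 it had 3 members above 0 and 2 below, beside 5.44% of all genes. Chaperones of the endoplasmic reticulum (22 of 30 above 0, median 0.22) had 3 members that rose in LYVE1+CX3CR1+ macrophages, beside 0.464% of all genes called, and 9 in the MHCII+ mean, beside 4.09%, and their median difference was 0.13 without the 2 smallest libraries. Cytosolic chaperones (11 of 20 above 0, median 0.05), lysosomal genes (29 of 46 above 0, median 0.04), the respiratory chain (33 of 59 above 0, median 0.05) and the proteasome (18 of 31 above 0, median 0.04) had medians near that of all genes. Cell cycle genes (25 of 32 above 0, median 0.27) held *Mcm2*, a replication helicase subunit, which rose in LYVE1+CX3CR1+ macrophages by 1.73 (SE 0.39, adjusted p = 0.0452) (called in 7 of 18 leave-one-out fits), with 0.16 (SE 0.28) in the MHCII+ mean and a difference of 1.56 (SE 0.48, adjusted p = 0.713).

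**Figure D5:**
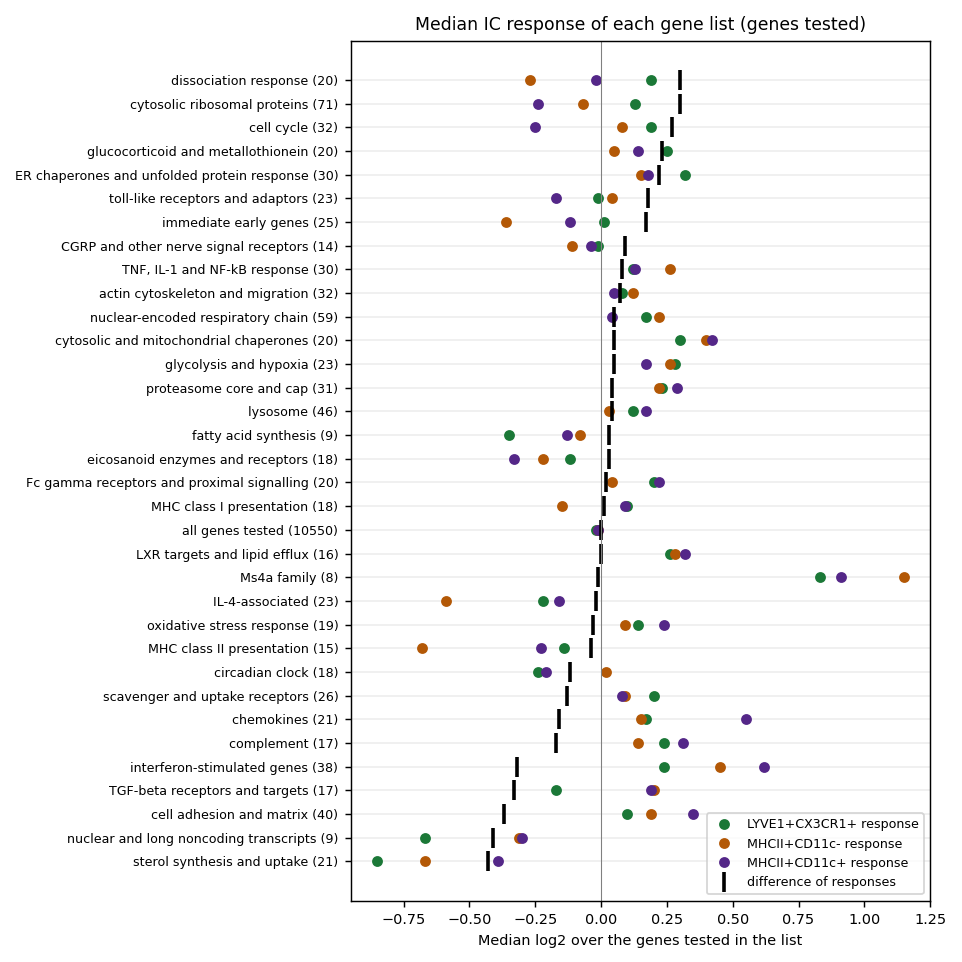
Median response to IC (log2) of each list with 8 or more genes tested, other than the lists of other cell types, in each subset (points) and as the median difference of responses (black bars), with the number of genes tested in brackets. The bars run from -0.43 for sterol synthesis and uptake to 0.30 for ribosomal proteins and the dissociation list, with all genes tested at -0.00.

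Inflammatory genes that the study names for these samples had no called difference. *Il1b* rose by 1.61 (SE 0.37, adjusted p = 0.0452) in LYVE1+CX3CR1+ macrophages, a call that held in 5 of 18 leave-one-out fits, and by 1.19 (SE 0.23, adjusted p = 0.00276) in the MHCII+ mean, with a difference of 0.42 (95% interval -0.47 to 1.31) that was 0.09 without the first treated LYVE1+CX3CR1+ library and 0.94 without the third untreated one. *Tnf* had 0.47 (SE 0.25) and 0.43 (SE 0.18), neither called, with a difference of 0.04 (95% interval -0.59 to 0.67). *Cxcl1*, a neutrophil attractant, had 1.02 (SE 0.44, adjusted p = 0.476) in LYVE1+CX3CR1+ macrophages and 1.18 (SE 0.34, adjusted p = 0.0486) in the MHCII+ mean, the latter called in 3 of 18 leave-one-out fits, with a difference of -0.16 (95% interval -1.31 to 0.98). *Mmp19*, a metalloproteinase, rose in the MHCII+ mean by 1.37 (SE 0.21, adjusted p = 2.83e-04), with 0.57 (SE 0.36) in LYVE1+CX3CR1+ macrophages and a difference of -0.80 (95% interval -1.68 to 0.07).

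*Ramp1* and *Calcrl*, parts of the receptor for the nerve peptide CGRP, had differences of 1.13 (95% interval -0.77 to 3.04) and -0.26 (95% interval -0.95 to 0.43). *Ramp1* fell in the MHCII+ mean by 1.48 (SE 0.39, adjusted p = 0.0266), a call that held in 12 of 18 leave-one-out fits. *Cxcl13*, a B cell attractant, had 1 read in 1 LYVE1+CX3CR1+ library with IC and 0 in the other 5 libraries of that subset, and 0 in each untreated MHCII+CD11c- library. With IC it held 31.4, 52.7 and 49.1 CPM in MHCII+CD11c- macrophages (adjusted p = 0.00105). It went from 2.63, 0.657 and 4.82 to 23.1, 14.9 and 57.3 CPM in MHCII+CD11c+ macrophages (adjusted p = 0.0140). Its difference of responses had no usable error, because whole groups were at 0.

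Set against each MHCII+ subset alone, the LYVE1+CX3CR1+ response gave few calls. Against MHCII+CD11c- macrophages edgeR called 0 genes, with 688 at an unadjusted p under 0.05, and DESeq2 called 12. Against MHCII+CD11c+ macrophages edgeR called *Vcan* alone, at -2.23 (SE 0.33, adjusted p = 0.00501), with 474 genes at an unadjusted p under 0.05, and DESeq2 called 11. Between the MHCII+ subsets 1 difference was called, that of *Akap11*, an anchor protein of kinase A, at -2.32 (SE 0.40, adjusted p = 0.0454) as MHCII+CD11c+ minus MHCII+CD11c-. In this comparison 1 gene was called in 4 of 18 leave-one-out fits and 0 in the other 14. The level in MHCII+CD11c- macrophages was 26.7, 29.3 and 23.5 CPM without treatment and 75.8, 52.7 and 56.1 with IC. MHCII+CD11c+ libraries held 59.4, 73 and 60.3 CPM without treatment and 32.4, 36.2 and 21.9 with IC. Both subsets were without overlap and in opposite directions, so that the MHCII+ mean of *Akap11*, 0.05 (SE 0.20), joins opposed values. Its level in LYVE1+CX3CR1+ macrophages was 47.2, 40.1 and 39.8 CPM without treatment and 41.2, 29 and 48.5 with IC, which overlapped.

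Genes of other cell types were also detected. The neutrophil list summed to 24.3 to 28.5 CPM in untreated and 19.7 to 208 in treated LYVE1+CX3CR1+ libraries, 1009 to 2315 and 1732 to 5220 in MHCII+CD11c-, and 149 to 899 and 1322 to 2891 in MHCII+CD11c+ libraries. Of its 14 tested members 8 rose in the MHCII+ mean, beside 4.09% of all genes called. In LYVE1+CX3CR1+ macrophages 0 were called, beside 0.464% of all genes, and the median log2 response was 2.38. At an unadjusted p under 0.05, 6 members were higher there, beside 430 of all 10550 genes. The lowest treated sum of LYVE1+CX3CR1+ macrophages, 19.7 CPM, lay under every untreated one, so that the list did not rise in each treated library. The mast cell list had a difference below 0 for 8 of 8 tested members. Of these, 3 had an unadjusted p under 0.05, beside 5.44% of all genes. The list summed to 3.23 to 55.2 and 0.564 to 35.5 CPM in LYVE1+CX3CR1+, 9.78 to 229 and 206 to 636 in MHCII+CD11c-, and 19.4 to 92 and 72.5 to 322 in MHCII+CD11c+ libraries. *Hdc*, the enzyme that makes histamine, rose in the MHCII+ mean by 2.51 (SE 0.41, adjusted p = 5.65e-04). The monocyte list, which holds *Vcan*, summed to 8090 to 9250 and 10209 to 11788 CPM, 6462 to 9803 and 5045 to 12007, and 9871 to 12029 and 10223 to 11280 in the same order, and no member of these 3 lists was at 0 in all 18 libraries. The erythroid list summed to 4.04 to 1152 and 0 to 37.2 CPM, 23.2 to 2873 and 41.1 to 152, and 109 to 1340 and 25.2 to 415 in that order, with untreated libraries far apart and 1 of 9 members at 0 throughout. The dendritic cell list summed to 73.2 to 116 and 98.4 to 161 CPM, 297 to 324 and 175 to 279, and 452 to 677 and 404 to 450. Its median difference was -0.99 over 10 tested members. At an unadjusted p under 0.05 it had 2 members in each direction, beside 5.44% of all genes. The part of these cells in the differences between subsets was not tested.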

How the data were processed

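Bulk RNA of sorted mouse synovial macrophages was sequenced in 18 libraries, 3 in each of 6 groups. The authors trimmed the reads (Trim Galore), aligned them to mm10 (HISAT2), counted them per gene (featureCounts) and deposited raw counts per gene symbol. Annotation, strand setting and the treatment of duplicate and multiply matching reads are not given in the sources used here, which leaves overlapping or antisense genes and close copies uncertain. Groups came from the sample labels. A combined table of the same values was not used.

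edgeR 4.0.16 (R 4.3.3) gave TMM factors, CPM and the quasi-likelihood test, fitted on the 18 libraries with 6 group terms. filterByExpr (minimum count 10, minimum total 15) kept 10550 of 24421 genes. P-values were adjusted by the Benjamini-Hochberg method within each comparison, with a threshold of 0.05, and all are two-sided. The SE of a log2 value is its absolute value over the root of F. Totals lay between 245903 and 2172358 counts (median 1526180), and *Rn45s*, the ribosomal RNA precursor, took 7.92 to 16.3% of them. A floor of 3 counts covers counting error only. The fit was tested on simulated counts. Alternatives were DESeq2 1.42.0 (Wald test, size factors), other filters, blocks, 1 surrogate variable (sva 3.50.0), thinning and leaving out libraries. Nothing says that pools came from separate cohorts, so p-values measure the spread between these pools.

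Named genes were those called in the difference of responses, the 8 in each direction with the lowest p among the rest (mean log2 CPM of at least 3), called genes of opposed sign with the lowest p (up to 8 for each population), genes the study names in its text, members of gene lists with the lowest p and the most highly expressed one, and the 8 most highly expressed genes called in both responses. Members and lists were chosen with earlier results of these data known. RefSeq coordinates on GRCm38.p6, counted from 1, were matched by symbol for 9994 tested genes (94.7%), and promoters for 8012. Some genes that this rule names are not reported here.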

Additional observations from a re-analysis of the deposited data

Results flagged for a closer look

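Differences between subsets in the response to IC were called by edgeR for *Vcan* and *Akap11*. The response of *Vcan* in LYVE1+CX3CR1+ macrophages minus the mean MHCII+ response was -1.58 on the log2 scale, and minus the MHCII+CD11c+ response alone it was -2.23. The response of *Akap11* in MHCII+CD11c+ macrophages minus that in MHCII+CD11c- macrophages was -2.32, and in this comparison 0 genes were called in 14 of 18 leave-one-out fits, 9 without an untreated library and 5 without a library with IC.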

How the results depend on the processing

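The difference of responses was called for 1 gene and the LYVE1+CX3CR1+ response for 49. Without a filter on low counts 31 and 160 genes were called, with 20 against MHCII+CD11c-, 27 against MHCII+CD11c+, 29 between the MHCII+ subsets and 16 opposed genes with a called difference. With at least 10 counts in every library the difference was called for 2 genes (*Vcan* and *Mpeg1*), both opposed. The DESeq2 Wald test called 12 genes, 154 in the LYVE1+CX3CR1+ response, 12 against MHCII+CD11c- and 11 against MHCII+CD11c+, and 1 surrogate variable gave 4 genes. Using only the libraries of the comparison gave 4 genes against MHCII+CD11c+ and 0 between the MHCII+ subsets. Without the 2 smallest libraries the counts were 6, 112, 3 against MHCII+CD11c+, 0 between the MHCII+ subsets and 4 opposed, with *Fcgr1* at 0.02 and *Tnf* at -0.19. Thinning to 245903 counts gave 0 genes and 0 opposed, with *Cxcl1* at 0.39, *Il1b* at -0.00, *Calcrl* at 0.07 and *Akap11* at 0.03. The cause of these shifts was not tested, other than fewer counts with thinning and fewer libraries with omission.

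With each library left out in turn the difference was called for 0 to 5 genes, the most without the second MHCII+CD11c- library with IC, and opposed genes numbered 0 to 3. The LYVE1+CX3CR1+ response had 13 to 96 calls (fewest without its first library with IC, most without the second MHCII+CD11c- library with IC), and the MHCII+ mean 283 to 570 (fewest without the third untreated MHCII+CD11c+ library). Against MHCII+CD11c- there were 0 to 1, against MHCII+CD11c+ 0 to 3 and between the MHCII+ subsets 0 to 1. The difference ranged from -0.55 to 0.30 for *Cxcl1*, from -0.13 to 0.27 for *Tnf* and from -0.33 to 0.05 for *Akap11*, none of them called. By edgeR the comparison against MHCII+CD11c-, with 0 calls, had 688 genes at an unadjusted p under 0.05. That between the MHCII+ subsets, with 1 call, had 642.

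With the replicate number as a block the difference was called for 2 genes (*Ccl6* and *Vcan*) and 0 between the MHCII+ subsets. With the number within each condition as the block, 2 genes were called in each of the difference, the comparison with MHCII+CD11c+ and that between the MHCII+ subsets. Same-numbered libraries of 1 condition correlated at -0.17 to 0.31 (median 0.095) over 18 pairs, 6 of them over 0.1. Differently numbered libraries of 1 condition correlated at -0.3 to 0.23 (median -0.03) over 36 pairs, 3 of them over 0.1. These are correlations of departures from the group means, which sum to 0 within a group. Values of same-numbered and differently numbered pairs are therefore not independent, and the second are no separate baseline. Same-numbered libraries were somewhat more alike on this measure, and they may share a pool of mice. The labels do not say so, and the main fit did not take the numbers as pairs. DESeq2 size factors moved the median difference by -0.01. Leaving out *Rn45s*, and the counts of gene lists without the 2 smallest libraries and in thinned libraries, were alternatives chosen after seeing the data.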
